A study of Mus musculus with 2 samples.

Results

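The interleukin-6 (IL-6) family of cytokines was followed through the cells of mouse pancreatic tumors, by the RNA of 5 ligands (Il6, Lif, Il11, Clcf1 and Osm), 4 receptor chains (Il6st, Il6ra, Osmr and Lifr) and the transcription factor Stat3. These 10 genes were chosen by symbol from the 32285 genes counted, and all 10 were present in both libraries. Their unique molecules (UMIs) were summed per cell class, to compare the cells that carry ligand RNA with the cells that carry receptor RNA. The 5 ligands signal through gp130, the product of Il6st, which pairs with a chain that sets the ligand: the IL-6 receptor for IL-6, the LIF receptor for LIF, the oncostatin M receptor for OSM. The pairs activate JAK kinases, which phosphorylate STAT3. In pancreatic cancer, LIF from stroma and tumor, IL-6 from inflammatory fibroblasts and OSM from myeloid cells are known activators of this pathway.

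The study implanted KPC cells, a mouse pancreatic cancer line, into the pancreas and sequenced unsorted cells of the resulting tumors, with 1 library per genotype. The library named FLOX came from control mice (MCT1 fl/fl) whose Slc16a1 gene, which encodes the lactate transporter MCT1, is flanked by loxP sites. The library named MCT1-KO came from mice that also carry Col1a2-CreERT2, a Cre recombinase that tamoxifen switches on in cells using the Col1a2 promoter, meant to delete the transporter in fibroblast-like cells such as pancreatic stellate cells, so other cells, the KPC cells included, keep the gene. Tamoxifen was given before implantation, and the control mice of the model received corn oil, so Cre genotype, tamoxifen and library cannot be told apart. All mice of the study were male, and the number and age of those behind each library are not given in the sources used here, where an age is stated for purchased C57BL/6 mice but not for the Cre or MCT1 fl/fl mice. All ratios below describe 2 libraries, not 2 genotypes, and nothing was tested. Intervals are exact 95% intervals and cover counting error only.

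Levels are a gene's UMIs scaled to the total UMIs of its class (counts per 1000000 UMIs, CPM). The FLOX library held 8739 kept barcodes with a median of 4069 UMIs and the MCT1-KO library 11689 with a median of 3706. Of their barcode sequences, 59 occurred in both. Slc16a1 stood at 25.5 CPM in FLOX fibroblast-like cells and at 34.4 CPM in those of the second library, a ratio of 1.35 (0.95 to 1.94). UMIs mark 3′ ends and the deleted exons are not given in the sources used here, so this level does not check the deletion. The second library is therefore called the MCT1-KO-labelled library. The study reported lower MCT1 in stellate cells of the knockout mice in its single-cell data, a direction not seen in the level above. It also reported lower MCT1 protein and RNA in primary stellate cells, and the knockout by immunofluorescence of pancreas sections.

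Cells were classed by fixed markers, none of them a member of the family. The classes are tumor-like (5977 cells), macrophage-like (3493), neutrophil-like (1488), T/NK-like (964), fibroblast-like (493), B-like (237), endothelial-like (206) and dendritic-like cells (168). There were also 187 acinar-like, 59 Epcam-positive epithelial and 21 islet-like cells, too few to compare, and the order of levels below is that of the first 8 classes. The tumor-like cells had the epithelial keratins Krt18 at 652 CPM and Krt8 at 547 CPM, while Krt7 stood at 53.4 CPM, Krt19 at 49.7 CPM, and Epcam and Cldn4 were nearly absent. The low Epcam is set by the class rule, which put barcodes with at least 2 Epcam UMIs in the Epcam-positive class. The fibroblast gene Dcn stood at 577 CPM in the tumor-like class. The fibroblast-like cells had Col1a2 at 5544 CPM, a gene of which the rule required at least 2 UMIs. They also had Wt1 at 252 CPM and Upk3b at 20.1 CPM, which are known from mesothelium. The class limits are ranges: 1800 of the 3493 macrophage-like and 691 of the 5977 tumor-like cells lay within 1.5 times their threshold. The tumor limit, 0.0423% of UMIs, was under the share of tumor markers in free RNA, 0.124% in the FLOX and 0.141% in the MCT1-KO library. Free RNA alone could therefore meet it in a barcode that passed no other class, and tumor-like shares carry this limit. A further 7135 barcodes (34.9%), with a median of 1151 UMIs, stayed unassigned. In the MCT1-KO-labelled library 24 of 68 dendritic-like cells also carried markers of another class, so dendritic-like levels are given but not compared between libraries.

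Free RNA, measured in barcodes with 10 to 100 UMIs, held every member and can add to low levels. In the FLOX and MCT1-KO-labelled libraries it held Il6 at 30.8 and 44.8 CPM, Lif at 75.3 and 83.6 CPM, Il11 at 177 and 170 CPM, Clcf1 at 69.0 and 103 CPM and Osm at 41.8 and 19.1 CPM. Receptor RNA there ran from 4.53 CPM for Lifr to 34.2 CPM for Osmr, and Stat3 stood at 114 and 115 CPM. A class that takes up free RNA therefore shows some ligand RNA whether or not its cells make it. Only part of a class's UMIs is free RNA. By the markers of other classes this part was estimated at 7.13% in tumor-like and 61.7% in dendritic-like cells of the MCT1-KO-labelled library, the lowest and highest values. A level under free RNA thus does not show by itself whether the cells make the RNA.

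Promoters are shown for the ligands matched in the table used, to set the sequence of Il6, highest in fibroblast-like cells, beside those of Lif and Il11, highest in tumor-like cells. Of the members, 8 of 10 were matched in RefSeq (GRCm38.p6), and of the ligands 3 of 5. Each line gives the 250 bases before the annotated start, 5′ to 3′ on the gene's strand. Capitals mark the letters TGANTCA, the core known to be bound by AP-1 factors and, in Il6, a match to the NF-kappaB site.
Il6, chr5:30012864-30013113, plus strand: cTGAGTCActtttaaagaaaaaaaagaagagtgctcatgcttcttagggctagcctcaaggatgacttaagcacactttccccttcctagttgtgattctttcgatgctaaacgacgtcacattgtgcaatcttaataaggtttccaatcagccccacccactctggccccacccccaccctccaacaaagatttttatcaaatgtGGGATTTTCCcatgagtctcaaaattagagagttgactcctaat
Lif, chr11:4257318-4257567, plus strand: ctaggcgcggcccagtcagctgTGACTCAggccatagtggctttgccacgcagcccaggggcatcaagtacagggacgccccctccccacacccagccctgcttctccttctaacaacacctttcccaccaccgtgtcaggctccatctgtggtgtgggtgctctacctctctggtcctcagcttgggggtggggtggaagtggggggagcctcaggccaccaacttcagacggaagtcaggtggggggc
Il11, chr7:4778142-4778391, minus strand: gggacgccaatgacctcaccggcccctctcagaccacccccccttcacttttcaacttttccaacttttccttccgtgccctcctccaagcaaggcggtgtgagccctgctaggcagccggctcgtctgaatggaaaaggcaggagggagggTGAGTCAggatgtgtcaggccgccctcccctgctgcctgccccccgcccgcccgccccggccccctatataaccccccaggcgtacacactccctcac

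The AP-1 letters began 249 bases before the start of Il6, 228 bases before that of Lif and 98 bases before that of Il11. The NF-kappaB match began 44 bases before the start of Il6. The second annotated start of Il11, at chr7:4782858-4783107 on the minus strand, had neither. Both strands were searched, and of all 32851 promoter windows of this length 6.75% held the AP-1 letters and 0.356% the NF-kappaB match. The letters TTCNNNGAA, a known form of the STAT site, were in none of these 4 windows and in 7.02% of all. These are matches of letters, not measured binding. By Ensembl identifier in GENCODE vM21 (GRCm38), Osm (chr11:4236420-4241026) and Lif (chr11:4257557-4272514) are neighbours 16531 bases apart, and Osmr (chr15:6813577-6874969) and Lifr (chr15:7090614-7197489) lie 215645 bases apart.

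Lif, Il11 and Clcf1 were ligands of the tumor-like cells, Il6 of the fibroblast-like cells, and Osm of the neutrophil-like and macrophage-like cells. The tumor-like class held 59.2% of all UMIs, which is the share a gene spread evenly over all RNA would have there. It held 80.3% (79.9 to 80.7) of the Il11 UMIs, 79.3% of those of Clcf1 and 72.8% of those of Lif. Of the Osm UMIs only 4.70% lay there, against 54.6% in macrophage-like and 20.8% in neutrophil-like cells, which held 14.5% and 1.72% of all UMIs. The macrophage-like share of Osm was 16.8% when the class markers had to reach 5 rather than 3 times their share in free RNA, a limit that left fewer cells in the class.

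**Figure D1:**
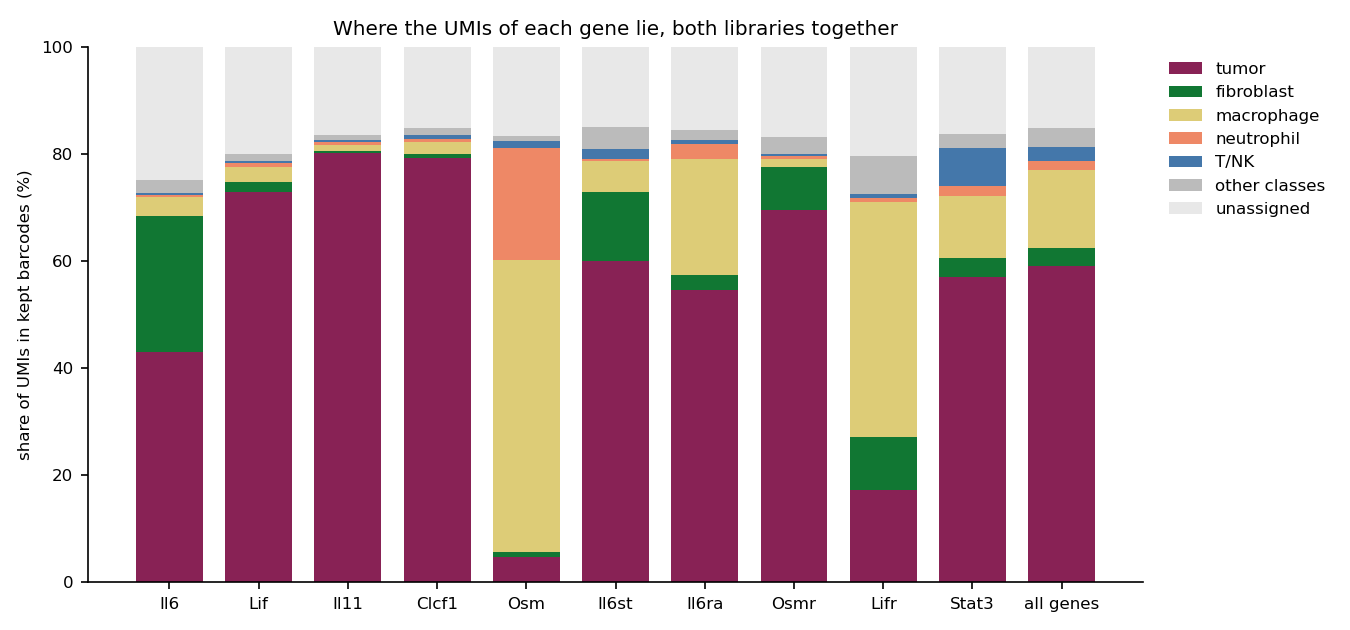
Share of each member's UMIs (percent, vertical axis) that lay in each cell class, both libraries together, with all genes as the last bar. Il11, Clcf1 and Lif exceed the 59.2% of all UMIs held by tumor-like cells, whereas Osm is mostly macrophage-like and neutrophil-like and Lifr has its largest share, 43.9%, in macrophage-like cells.

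Lif encodes leukemia inhibitory factor. The FLOX tumor-like cells had 61.1 CPM (58.3 to 63.9), and those of the MCT1-KO-labelled library 71.8 CPM (69.5 to 74.1), 1.18 times as much (1.11 to 1.24). Fibroblast-like cells had 40.9 and 24.3 CPM, dendritic-like cells 13.5 and 56.9 CPM, and neutrophil-like cells 15.8 and 40.3 CPM. With dendritic-like cells set aside, fibroblast-like cells were second in the FLOX library and neutrophil-like cells in the other. There 1 neutrophil-like barcode held 27 of the 43 UMIs. Of the 8 classes tumor-like cells were thus highest in both libraries, 2.14-fold over fibroblast-like cells with the libraries together. Fibroblast-like, dendritic-like and neutrophil-like cells followed, with overlapping neighbouring intervals between 26.4 and 31.7 CPM, and the other 4 classes lay between 7.59 and 10.9 CPM and also overlapped. Free RNA held more Lif than any of these 8 classes. The 21 islet-like cells had 81.6 CPM (39.2 to 150.1), from 10 UMIs of which 6 lay in 1 cell, and the unassigned barcodes had 72.9 CPM, both above the tumor-like 67.9 CPM.

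Of the tumor-like cells 31.9% had a Lif UMI, against 2.39% of T/NK-like cells, whose median depth was 2944 UMIs against 15868. With every cell thinned to 1000 UMIs, which left out 133 and 36 shallower cells, the shares were 5.37% and 0.216%.

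Il11 encodes interleukin-11, known in fibrosis and tumor inflammation. Tumor-like cells had 324 CPM (317 to 330.2) of it in the control library and 356 CPM (351 to 362) in the second. With the libraries together dendritic-like cells came next (48.1 and 181 CPM), overlapping with neutrophil-like cells (49.5 and 112 CPM), but in the FLOX library B-like cells were second with 89.5 CPM. That value rests on 1 of 59 cells, which held 26 of the 36 UMIs, and was 26.6 CPM without it. In dendritic-like cells, too, 1 cell of each library held 32 of 57 and 34 of 118 Il11 UMIs. Tumor-like cells were 3.62-fold over the next class, and macrophage-like cells were lowest with 21.7 and 14.5 CPM. Only the tumor-like class lay above the free RNA in the FLOX library. In the MCT1-KO-labelled library the dendritic-like class did too, within its interval. The share of tumor-like cells with a UMI was 66.6%, against 9.91% of macrophage-like cells at a median of 5694 UMIs. After thinning it was 21.5% against 1.79%, with 147 macrophage-like cells left out.

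Clcf1 encodes cardiotrophin-like cytokine factor 1, a ligand of the CNTF receptor. It was the tumor ligand that differed most between the libraries. Its tumor-like level was 96.5 CPM in the FLOX and 155 CPM (151 to 158) in the MCT1-KO-labelled library, which makes a ratio of 1.60 (1.54 to 1.67). All other classes were lower, with both libraries together between 14.7 CPM in macrophage-like and 50.1 CPM in dendritic-like cells. Tumor-like cells stood 2.67-fold over the next class. Free RNA also held more Clcf1 in the MCT1-KO-labelled library. A UMI was found in 61.6% of tumor-like cells and 8.04% of macrophage-like cells, and in 10.8% and 1.85% after thinning.

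Il6 encodes interleukin-6, the founding member. Fibroblast-like cells stood far above every other class, with 401 CPM (374 to 429) in FLOX cells and 350.3 CPM (328 to 374) in MCT1-KO-labelled cells. Endothelial-like cells came next with 69.8 and 62.3 CPM. Behind them, tumor-like cells had 31.4 and 36.1 CPM and dendritic-like cells 16.02 and 59.9 CPM. Tumor-like cells were thus above dendritic-like cells in the FLOX library and under them in the MCT1-KO-labelled library. With the libraries together fibroblast-like cells were 5.59-fold over the second class and 54.8-fold over the lowest, T/NK-like cells. The tumor-like and dendritic-like intervals overlapped in these sums. There B-like, macrophage-like, neutrophil-like and T/NK-like cells lay between 6.81 and 12.6 CPM, and each overlapped with its neighbour in the order. The tumor-like level was near that of free RNA in the FLOX library and under it in the other.

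By amount rather than level, tumor-like cells still held 42.9% (41.8 to 44.1) of the Il6 UMIs, fibroblast-like cells 25.6% and unassigned barcodes 24.8%. Of the fibroblast-like cells 49.1% had an Il6 UMI, against 1.35% of T/NK-like cells, where the median depths were 8393 and 2944 UMIs. After thinning the shares were 22.1% and 0.323%, with 17 and 36 cells left out. In tumor-like cells 18.7% had one, and 3.15% after thinning.

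Osm encodes oncostatin M, a known myeloid product. Neutrophil-like cells of the FLOX library had 622 CPM (582 to 665), those of the MCT1-KO-labelled library 127 CPM (106 to 150). Macrophage-like cells had 137 CPM (131 to 144) and 112 CPM (105 to 120). In the FLOX library the neutrophil-like level was thus the highest and clear of the macrophage-like level, whereas in the MCT1-KO-labelled library the intervals of these classes overlapped. B-like cells followed with 37.3 and 12.8 CPM and T/NK-like cells with 22.1 and 12.2 CPM, with overlapping intervals and under the free RNA of the same library. Tumor-like cells had 4.18 and 1.82 CPM and endothelial-like cells 3 UMIs in all.

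An Osm UMI was found in 43.9% of neutrophil-like cells of the FLOX library and 12.8% of those of the other, against 4.52% and 1.95% of tumor-like cells. Neutrophil-like cells were shallow, with a median of 1273 UMIs, and thinning lowered their shares to 34.2% and 10.6%, with 64 and 276 cells left out. Macrophage-like cells went from 40.9% and 33.6% to 10.6% and 9.64%, with 102 and 45 cells left out. At equal depth neutrophil-like cells therefore held Osm more often in the FLOX library and about as often as macrophage-like cells in the other.

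**Figure D2:**
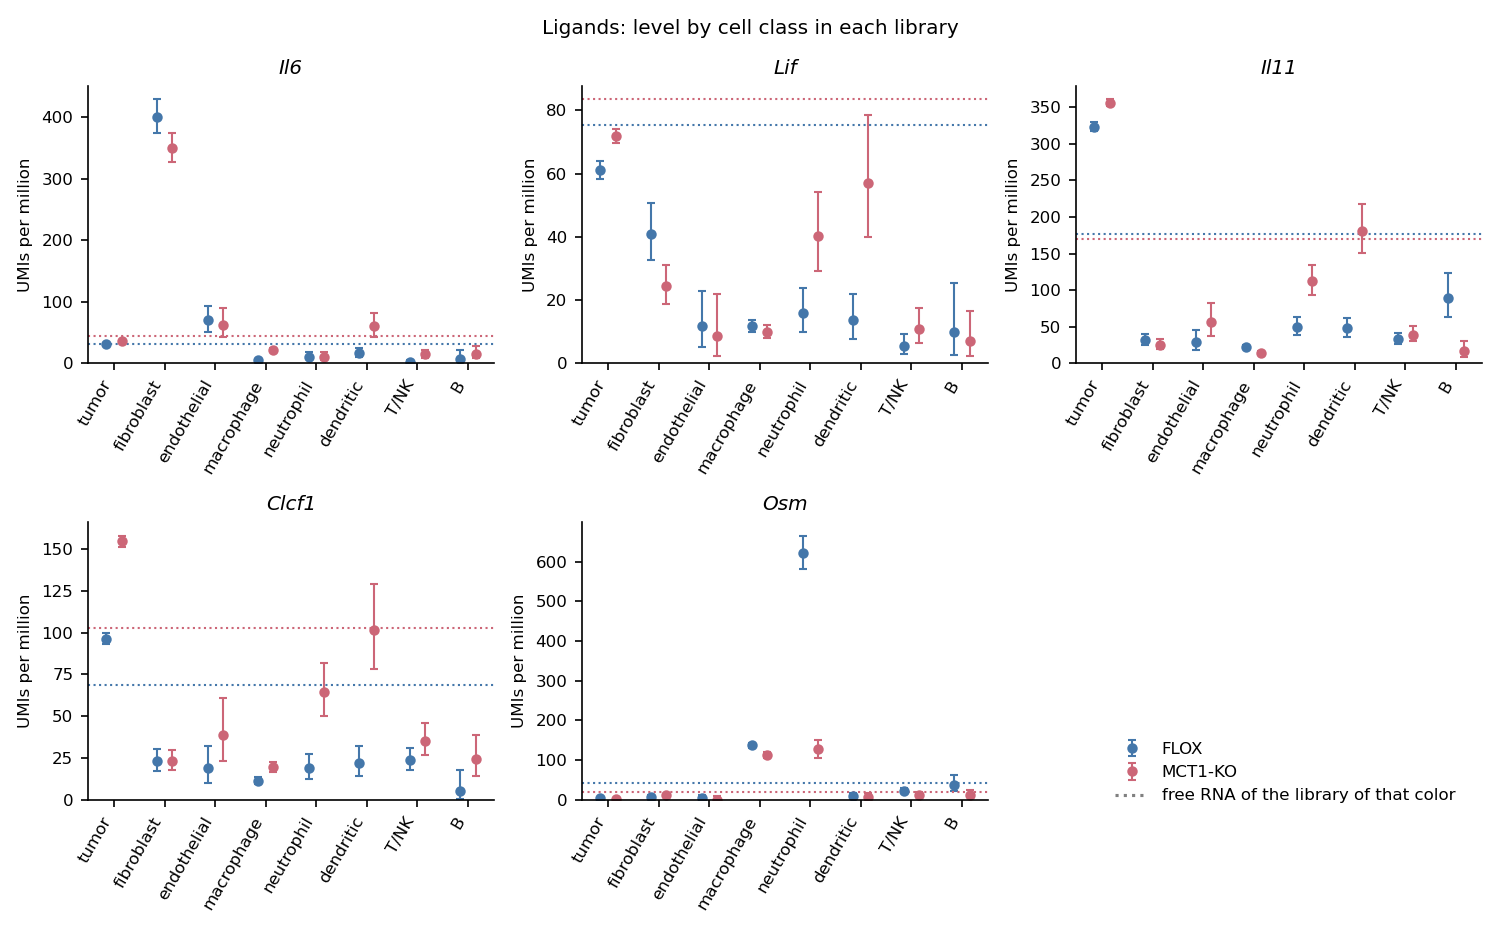
Level of each ligand (CPM, vertical axis) in 8 cell classes, with 1 point per library, 95% counting intervals as bars and the free RNA of each library as dotted lines. Fibroblast-like cells lead for Il6, tumor-like cells for Lif, Il11 and Clcf1, and neutrophil-like cells for Osm, where the FLOX library stands at 622 and the MCT1-KO-labelled library at 127.

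By level, fibroblast-like cells led for Il6st, and fibroblast-like and endothelial-like cells for Osmr. Neutrophil-like and macrophage-like cells led for Il6ra, and no single class led for Lifr. By amount, tumor-like cells held 69.5% of the Osmr UMIs, 60.02% of those of Il6st and 54.6% of those of Il6ra, beside 59.2% of all UMIs. Fibroblast-like cells held 8.05%, 12.9% and 2.70% of them. Of the Lifr UMIs 17.3% lay in tumor-like cells. Il6st, the gp130 chain that the 5 ligands share, had 164 CPM (147 to 182) in FLOX fibroblast-like cells and 187 CPM (171 to 205) in those labelled MCT1-KO. Endothelial-like cells had 95.9 and 123 CPM, and tumor-like cells 49.8 and 42.4 CPM. The first 2 classes were separate from each other and from the rest, and B-like and tumor-like cells overlapped behind them. Myeloid cells were lowest, with 17.6 CPM in macrophage-like and 12.2 CPM in neutrophil-like cells. An Il6st UMI was found in 62.3% of fibroblast-like and 1.95% of neutrophil-like cells, and in 14.9% and 0.871% after thinning, with 17 and 340 cells left out.

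Osmr, the chain that makes gp130 a receptor for OSM, followed a like order. Here FLOX fibroblast-like cells had 86.6 CPM (74.4 to 100.2) and the MCT1-KO-labelled ones 139 CPM (125 to 154). Endothelial-like cells had 82.8 and 116 CPM, overlapping with fibroblast-like cells with both libraries summed. Tumor-like cells had 57.0 and 53.3 CPM, and macrophage-like cells 5.60 and 4.09 CPM, the lowest level. The few islet-like cells had 131 CPM, from 16 UMIs. Neutrophil-like cells, first for Osm, had 7.90 and 18.7 CPM of Osmr, under its free RNA. A UMI was found in 56.2% of fibroblast-like cells, 44.0% of tumor-like cells and 2.92% of macrophage-like cells, and in 13.2%, 4.77% and 0.448% after thinning.

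Lifr, the chain for LIF, had 3 leading classes that could not be separated with the libraries together: fibroblast-like cells with 23.6 and 30.5 CPM, macrophage-like cells with 17.2 and 41.1 CPM, and endothelial-like cells with 13.1 and 43.0 CPM. The few Epcam-positive epithelial cells had 42.4 CPM, from 22 UMIs. Tumor-like cells, which led for Lif itself, had 2.94 and 2.44 CPM, under the free RNA of 4.53 and 6.92 CPM. A Lifr UMI was found in 19.5% of fibroblast-like, 14.3% of macrophage-like and 3.45% of tumor-like cells, and in 3.15%, 3.26% and 0.411% after thinning.

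Il6ra encodes the chain that binds IL-6. It was highest in neutrophil-like cells with 76.1 and 86.2 CPM and macrophage-like cells with 63.6 and 87.9 CPM, which overlapped. Tumor-like cells had 44.8 and 45.5 CPM and fibroblast-like cells 29.8 and 49.7 CPM. T/NK-like cells were lowest with 12.4 and 10.9 CPM, at the level of free RNA. The classes with the most Il6ra were among those with the least Il6st. A UMI was found in 34.0% of macrophage-like and 4.15% of T/NK-like cells, and in 7.23% and 1.08% after thinning. In neutrophil-like cells the shares per library were 12.8% and 11.2%, and 8.43% and 7.42% after thinning.

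**Figure D3:**
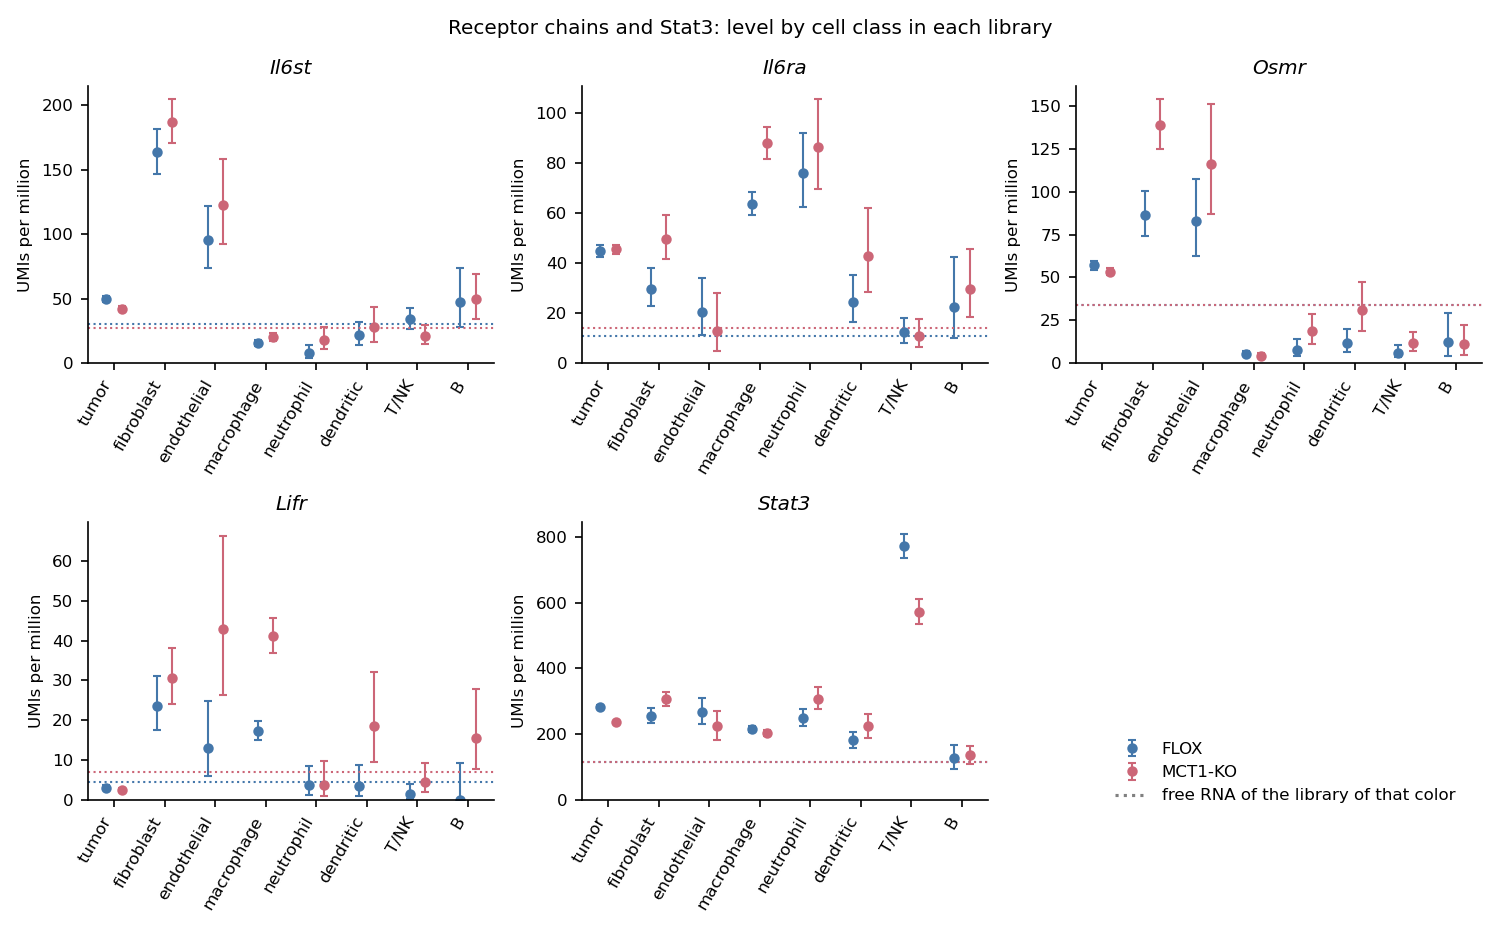
Level of each receptor chain and of Stat3 (CPM, vertical axis) in 8 cell classes, drawn as for the ligands. Fibroblast-like and endothelial-like cells stand highest for Il6st and Osmr, neutrophil-like and macrophage-like cells for Il6ra, and T/NK-like cells for Stat3.

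Chains of a receptor pair were also counted in the same cell. Of the fibroblast-like cells 40.8% (36.4 to 45.3) had UMIs of both Il6st and Osmr, against 23.9% of tumor-like, 14.1% of endothelial-like and 0.229% of macrophage-like cells. The pair of Il6st and Il11ra1, the chain for IL-11, was found in 31.2% of fibroblast-like and 7.40% of tumor-like cells. Il6st with Il6ra was found in 20.9% and 21.1%, and Il6st with Lifr in 14.4% and 1.82%. These shares were not thinned, and tumor-like cells were deeper (median 15868 UMIs) than fibroblast-like cells (8393), so the lower tumor-like shares of 3 pairs were seen despite more UMIs per cell. In endothelial-like and macrophage-like cells the depth was lower, at 4096 and 5694 UMIs.

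Stat3 RNA was found in every class and was highest in T/NK-like cells. T/NK-like cells of the FLOX library had 771 CPM (735 to 808) and those of the MCT1-KO-labelled one 571 CPM (535 to 610.3), for a ratio of 0.741 (0.683 to 0.804). This lies inside the 1.5-fold limit used below, but with free RNA subtracted the ratio was 0.625, and with classes set per cluster 0.66, both past it. All other classes lay between 127 and 307 CPM, with fibroblast-like, neutrophil-like, tumor-like and endothelial-like cells overlapping as neighbours. T/NK-like cells stood 2.44-fold over the next class and 5.23-fold over B-like cells. A Stat3 UMI was found in 72.9% of T/NK-like cells and 37.1% of B-like cells, and in 42.6% and 14.5% after thinning, with 36 and 16 cells left out. Within T/NK-like cells, those with CD8 UMIs and no CD4 UMI had 786 and 596 CPM, a ratio of 0.758 (0.685 to 0.839). Those with CD4 alone had 806 and 547 CPM, a ratio of 0.678 (0.543 to 0.842). Both gates had the lower level in the MCT1-KO-labelled library.

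Between the libraries, a member was counted within a class if it had at least 50 UMIs there, and as different if its levels were at least 1.5-fold apart. In fibroblast-like cells, the class the deletion was aimed at, 3 of 9 members counted were past this fold, against 21.9% of all 7974 genes counted there. Osmr was higher in the MCT1-KO-labelled library, with a ratio of 1.60 (1.34 to 1.93), as was Il6ra with 1.67 (1.22 to 2.30). Lif was lower, with 0.593 (0.421 to 0.833), at levels under free RNA. Without the upper limit on genes the Lif ratio came inside the fold, to 0.682. Il6 itself, with a ratio of 0.873 (0.794 to 0.961), Il6st with 1.15 (0.995 to 1.32) and Stat3 with 1.20 (1.07 to 1.34) stayed within the fold. Osm had under 50 UMIs.

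The fibroblast-like class lay mainly in 2 clusters of cells, and Osmr differed more in the second. The first, led by Calca and Cxcl13, held 54.1% of the FLOX cells of the class and 50.2% of the others. The second, led by Dpt and Serpina3n, held 40.8% and 47.8% and had more Il6, 632 and 546 CPM against 194 and 187 CPM. It held 68.1% of the class's Il6 UMIs. In the second cluster Osmr was 90.1 and 202 CPM, a ratio of 2.24 (1.74 to 2.92), Il6ra 29.3 and 62.7 CPM, and Il6st 220 and 309 CPM. In the first, Osmr was 79.3 and 89.6 CPM, a ratio of 1.13 (0.852 to 1.51). The intervals of the Osmr ratios in these clusters did not overlap. Il6ra in the first was 31.5 and 41.4 CPM, Il6st 91.7 and 100.5 CPM and Lifr 8.60 and 9.51 CPM, and the intervals of their ratios overlapped between the clusters. Stat3 in the second cluster was 291 and 408 CPM and Lifr 38.8 and 59.8 CPM.

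In macrophage-like cells 3 of 10 members were past the fold, all higher in the MCT1-KO-labelled library, against 16.1% of 10735 genes. More members passed it when class markers had to reach 5 times their share in free RNA. Il6 had 58 and 179 UMIs, or 4.78 and 20.9 CPM, which gave a ratio of 4.37 (3.24 to 5.99). Lifr had a ratio of 2.39 (2.01 to 2.85) and Clcf1, which stood under free RNA in both libraries, of 1.69 (1.34 to 2.14). Il6 was also under free RNA in both, at 30.8 and 44.8 CPM. Subtracting the free RNA estimated from markers of other classes left no Il6 in the FLOX library and 16.8 CPM in the other. Under 3 Clcf1 UMIs were then left in the FLOX library, so neither gene had a ratio.

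Both differences can be followed into clusters. The cluster led by Arg1, Saa3 and Chil3 held 14.4% of FLOX and 24.9% of MCT1-KO-labelled macrophage-like cells, and 76.8% (70.9 to 82.0) of the Il6 UMIs of the class. Its Il6 level was 16.3 and 63.2 CPM, a ratio of 3.89 (2.68 to 5.76), so the difference was present within the cluster as well as in its share. The large cluster, with 67.8% and 64.5% of the class, had Il6 at 1.95 and 4.36 CPM. Over all cells it was led by Apoe, complement genes and Ccl8, but within the class by the heat shock genes Hspa1a, Hsph1 and Hspa1b. Lifr was higher in both clusters, with 13.1 and 48.5 CPM in the Arg1 cluster and 19.0 and 40.9 CPM in the other. Osm was somewhat lower in the MCT1-KO-labelled library in both, with ratios of 0.761 and 0.796.

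In neutrophil-like cells 4 of 6 members counted were past the fold, against 24.9% of 5370 genes. Osm was lower in the MCT1-KO-labelled library, with a ratio of 0.203 (0.168 to 0.244). The 2 main clusters had the same direction and size: in the one led by Il1r2 and Hdc Osm was 509 and 127 CPM, a ratio of 0.249, and in the one led by Ngp and Camp, genes of immature neutrophils, 1022 and 243 CPM, a ratio of 0.238. These clusters held 70.5% and 71.7%, and 23.2% and 19.0%, of the class in the libraries.

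The other 3 members past the fold in neutrophil-like cells were the tumor-like ligands Lif (15.8 and 40.3 CPM), Il11 (49.5 and 112 CPM) and Clcf1 (18.7 and 64.7 CPM), all under the free RNA of their library. For Lif 27 of the 43 UMIs in the MCT1-KO-labelled library lay in 1 barcode. Without the barcode richest in Lif in each library the levels were 14.6 and 15.3 CPM, a ratio of 1.05. The same step left Il11 at 2.79 and Clcf1 at 2.92. With classes set per cluster Lif turned, to a ratio of 0.978, Il11 came inside the fold with 1.23, and Clcf1 stayed past it with 1.70. Inside the Il1r2 cluster Lif had 16.7 and 11.8 CPM. Free RNA was estimated at 41.0% (16.9 to 59.8 over the marker lists of other classes) and 27.2% (14.2 to 34.3) of neutrophil-like UMIs in the libraries. With it subtracted, under 3 UMIs of each of these 3 ligands were left in the FLOX library, so they had no ratio. Osm was then the only member past the fold in this class. The part of free RNA in these ratios was not tested.

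**Figure D4:**
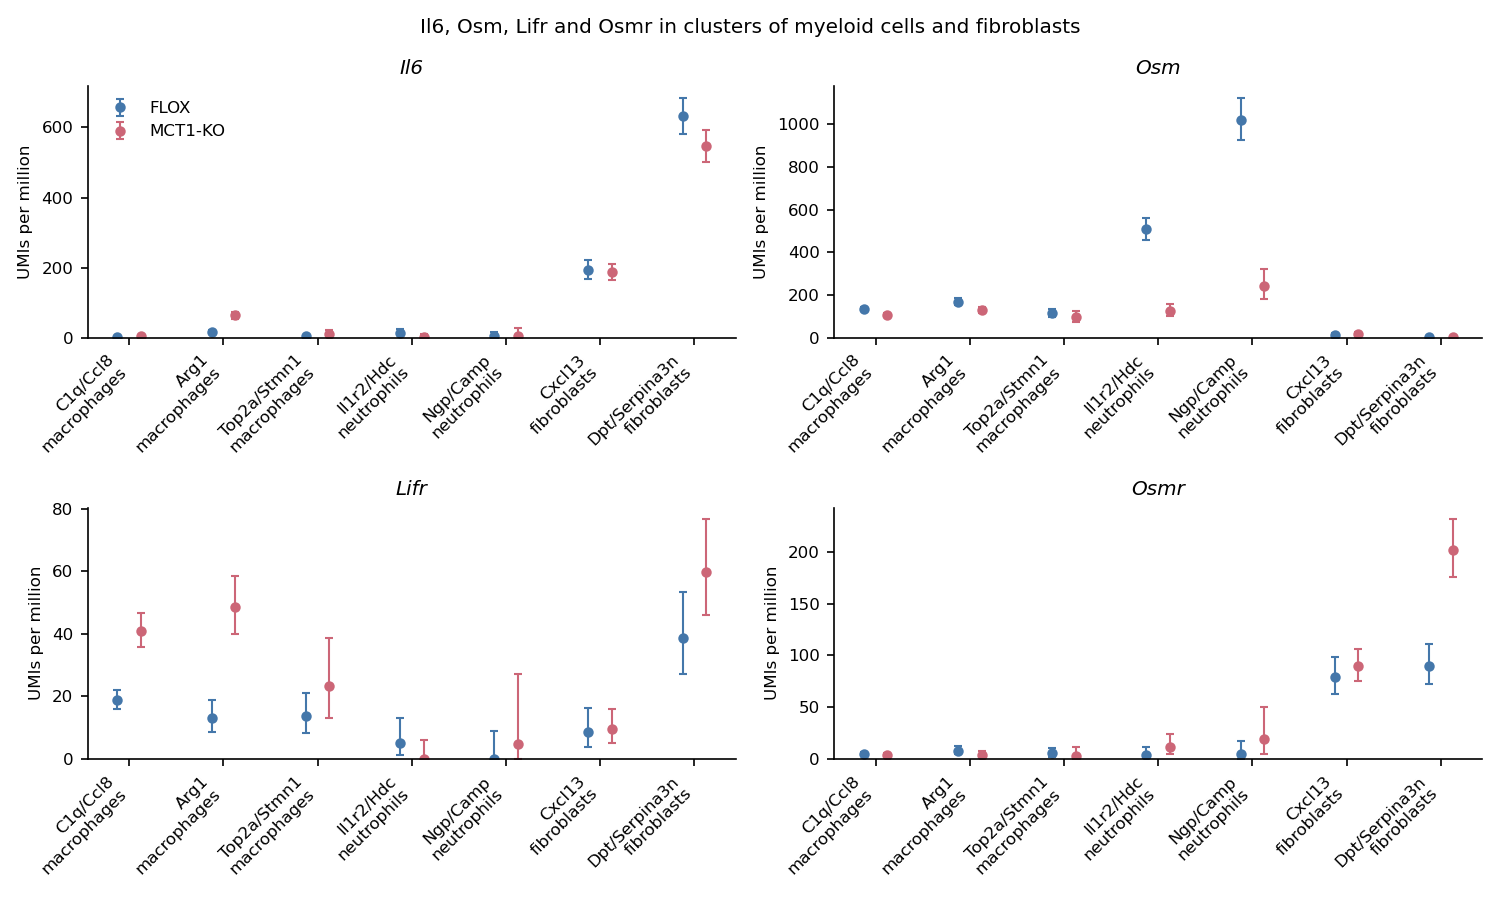
Level of Il6, Osm, Lifr and Osmr (CPM, vertical axis) in clusters of macrophage-like, neutrophil-like and fibroblast-like cells, with 1 point per library and 95% counting intervals. Osm is lower in the MCT1-KO-labelled library in both neutrophil-like clusters, Lifr is higher there in the macrophage-like clusters led by C1q genes and by Arg1, and Osmr stands at 90.1 against 202 in the Dpt and Serpina3n cluster of fibroblast-like cells.

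In tumor-like cells 2 of 10 members were past the fold, against 13.4% of 13190 genes: Clcf1, with a ratio of 1.60, and Osm, with 0.436 (0.332 to 0.572) at levels far under free RNA. With free RNA subtracted the Osm ratio came inside the fold, to 0.839, which left only Clcf1. Il6 had 1.15 (1.07 to 1.25), Il11 1.10 (1.08 to 1.13) and Stat3 0.836 (0.813 to 0.859). The tumor-like cells of the libraries lay mostly in different clusters: one led by heat shock genes held 37.7% of those from the FLOX library and 0.519% of the rest, whereas one led by Pde10a and Fmo2 held 0.424% and 31.9%. Over 14 such clusters Il11 ran from 114 to 482 CPM, Clcf1 from 39.3 to 207 CPM, Lif from 20.1 to 105 CPM and Il6 from 8.23 to 57.0 CPM. For all 4 ligands the Pde10a cluster was highest and a cluster led by Ube2c and Birc5, genes of dividing cells, lowest. That cluster was shallow, with a median of 2967 UMIs.

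Some tumor-like clusters were led within the class by markers of other cells: one of 478 cells by Dcn and Lum, of which 473 were from the FLOX library, and 3 smaller ones by macrophage, acinar and neutrophil genes. Without these 4 clusters the ratio of Clcf1 was 1.82 and that of Il6 1.70, so Il6 then passed the fold. Of 3 clusters with many cells of both libraries, one led by the interferon-induced genes Cxcl10 and Gbp2 had Il11 at 184 and 342 CPM, a ratio of 1.86 (1.64 to 2.12), Clcf1 at 87.4 and 170 CPM, and Stat3 at 406 and 277 CPM, a ratio of 0.682 (0.617 to 0.754). In the cluster led within the class by macrophage genes (85 and 139 cells) the ratio was 0.997 (0.855 to 1.17) for Il11, 1.44 (1.11 to 1.89) for Clcf1 and 0.763 (0.650 to 0.896) for Stat3. In the shallow cluster of dividing cells (120 and 147 cells) it was 1.10 (0.765 to 1.59) for Il11, 1.51 (0.791 to 2.94) for Clcf1 and 0.897 (0.548 to 1.46) for Stat3. The ratio of Il11 was thus past the fold in the first of these clusters and not in the others.

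In T/NK-like cells 2 of 5 members counted were past the fold, against 16.1% of 7420 genes. Osm was 22.1 and 12.2 CPM, under free RNA in both libraries. Il6st was 34.1 and 21.2 CPM, a ratio of 0.622 (0.401 to 0.947), with the second level under its free RNA of 26.9 CPM. The ratio came inside the fold, to 0.669, without a cluster of 50 cells led by macrophage genes, and to 0.763 with classes set per cluster. That of Osm did so without barcodes carrying markers of 2 classes or with free RNA subtracted. Il6ra, Lif, Il6, Osmr and Lifr had under 50 UMIs.

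**Figure D5:**
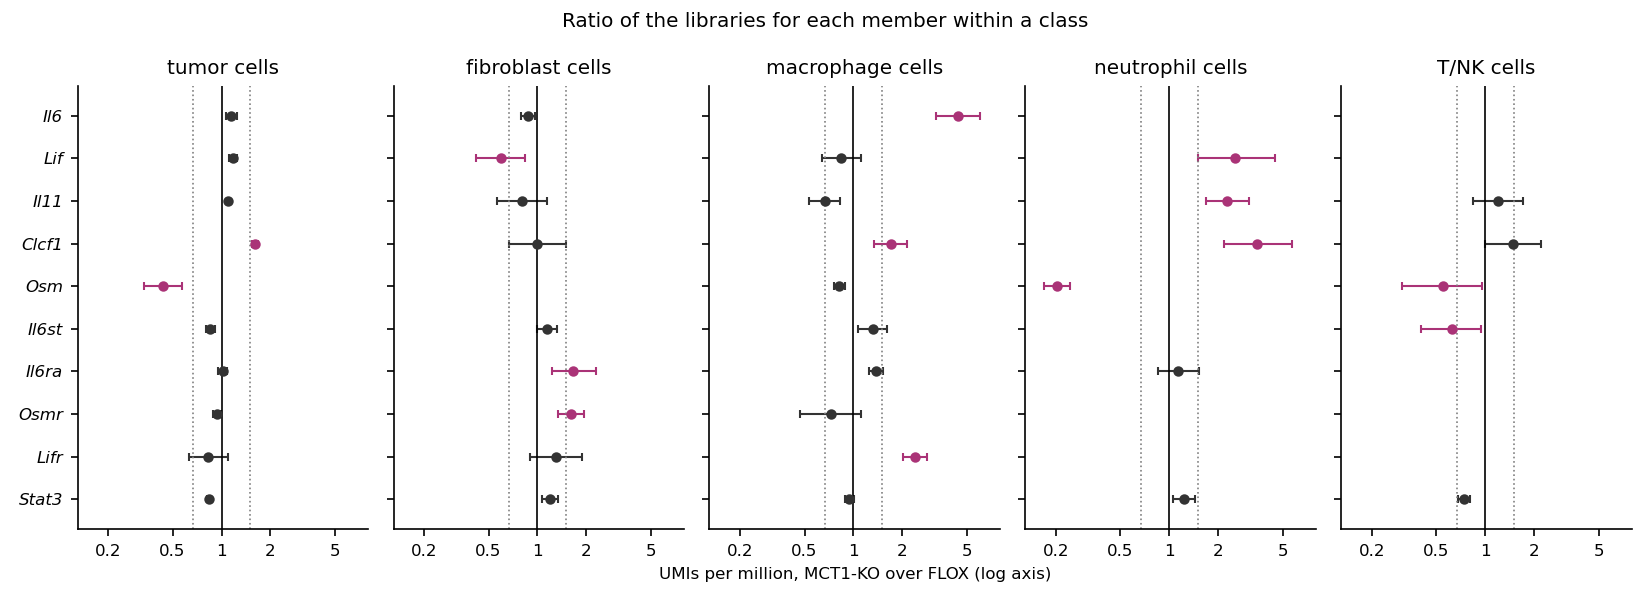
Ratio of the level in the MCT1-KO-labelled library to that in the FLOX library (log axis) for each member with at least 50 UMIs, in 5 cell classes, with 95% counting intervals. Dotted lines mark 1.5-fold in either direction and colored points lie past it, with Osm in neutrophil-like cells at 0.203 and Il6 in macrophage-like cells at 4.37 as the farthest.

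In single tumor-like cells Lif was detected more often where another of the ligands was. Cells were thinned to 5000 UMIs, which left 4850 of 5977. Lif was detected in 41.7% (37.2 to 46.4) of cells with an Il6 UMI and in 17.6% (16.4 to 18.7) of those without. Il11 was detected in 72.7% of Lif-positive and 49.4% of Lif-negative cells, and Clcf1 in 52.9% and 38.3%. The receptor chain Osmr, in 24.8% and 22.7%, and Il6st, in 22.2% and 19.1%, differed little, and Stat3 was detected in 62.1% and 67.6%. All 3 of Lif, Il11 and Clcf1 were detected in 8.25% of cells and none of them in 27.7%. Since most cells of the libraries lie in different clusters, these shares also carry differences between clusters.

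The genes whose levels went most with those of Lif, Osm and Il6 were found by Pearson correlation of log2(CPM + 1) over 17 sums, 1 per class and library with at least 50 cells, among 12698 genes. For Lif these were Pak3 (0.94), Tfr2 (0.92, from only 221 UMIs) and Tnfrsf12a (0.91), for Osm Il1a (0.95), Gpr35 (0.94) and Pilra (0.93), and for Il6 Phldb1 (0.94), Tgfb2 (0.93) and Crtap (0.93). Il1a encodes the cytokine interleukin-1 alpha and Tnfrsf12a the receptor of TWEAK. Among the members themselves the highest value was 0.85, between Il6 and Osmr. The sums share 2 libraries, their depths and their free RNA, so these values only describe the order of classes.

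Of the family ligands outside the members, 4 of 6 could be counted in tumor-like cells and 2 were past the fold, against 13.4% of all genes there. These were Il27 (1.24 and 1.92 CPM) and Ebi3 (1.37 and 0.595 CPM), both at the level of free RNA (2.18 and 1.66 CPM for Il27) or under it (6.62 and 3.60 CPM for Ebi3). In macrophage-like cells none of 3 counted was past the fold, and the 1 counted in neutrophil-like and in fibroblast-like cells was not either. Macrophage-like cells held both genes above free RNA, with ratios of 0.911 for Il27 and 0.822 for Ebi3 (37.8 and 31.1 CPM). Neutrophil-like cells had Ebi3 at 93.3 and 95.6 CPM, a ratio of 1.02. Of the receptor chains, Il11ra1 was highest in fibroblast-like cells with 100.5 and 78.7 CPM, and Cntfr, the chain for CNTF and CLCF1, was past the fold there with 13.5 and 23.1 CPM, the only one of 3 counted, beside the 21.9% of all genes there.

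Of the JAK kinases, which carry the signal from the receptor chains, and other STATs, 1 of 4 counted was past the fold in neutrophil-like cells. This was Jak2, with 202 and 343 CPM, beside 24.9% of all genes there. In endothelial-like cells 2 of 3 counted were past it, beside 20.7% of all genes: Jak2, higher with 81.4 and 138 CPM, and 1 that was lower. In tumor-like cells 1 of 6 counted was past it, in fibroblast-like cells 1 of 4 and in macrophage-like cells 1 of 6, each lower. Of all genes 13.4%, 21.9% and 16.1% were past it there. In T/NK-like cells none of 6 was, against 16.1% of all genes. Jak2 stayed inside the fold in each of these other classes.

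Of the feedback and shedding genes 3 of 5 counted were past the fold in fibroblast-like cells, where 21.9% of all genes were. None of 7 was in tumor-like or in macrophage-like cells, against 13.4% and 16.1% of all genes. In neutrophil-like cells 2 of 6 counted were and in T/NK-like cells 1 of 6, against 24.9% and 16.1% of all genes. Socs3, the feedback inhibitor that STAT3 is known to induce, was 171 and 341 CPM in fibroblast-like cells, a ratio of 1.99 (1.76 to 2.26). In tumor-like cells it was 222 and 155 CPM, a ratio of 0.699 (0.677 to 0.722), which is in the other direction though within the fold. Free RNA held Socs3 at 244 and 183 CPM, above both tumor-like levels and above the fibroblast-like level of the FLOX library. Socs1 was also higher in fibroblast-like cells, with 27.4 and 53.2 CPM, and Adam17, a protease known to shed the IL-6 receptor, was lower, with 40.9 and 25.4 CPM.

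The genes known to be induced through STAT3 did not go one way. Socs3 belongs to this list as well. In fibroblast-like cells 4 of 12 were higher and 2 lower, against 21.9% of all genes past the fold in either direction. The median log2 ratio of the list was 0.47, that of all genes there -0.05. Myc was 48.1 and 128 CPM and Bcl3 25.5 and 47.4 CPM, with the FLOX levels under their free RNA of 62.6 and 33.1 CPM, whereas Timp1, an inhibitor of matrix proteases, was 1742 and 672 CPM and the acute-phase gene Saa3 2961 and 1642 CPM. In macrophage-like cells 1 of 12 was higher and 2 lower, against 16.1% of all genes: Saa3 was 70.0 and 541 CPM, a ratio of 7.72 (7.18 to 8.32), while Fgl2 (215 and 122 CPM) and Timp1 were lower. Timp1 stood there at 22.2 and 14.0 CPM, far under its free RNA of 259 and 206 CPM. In tumor-like cells 2 of 12 were higher, against 13.4% of all genes past the fold: Myc with 136 and 237 CPM and Saa3 with 7.47 and 31.4 CPM. Fgl2 was lower, with 5.29 and 2.21 CPM under free RNA of 37.5 and 17.6 CPM. Saa3 was far under its free RNA of 104 and 246 CPM there, and in FLOX macrophage-like cells also under it. In neutrophil-like cells 2 of 12 were higher and 2 lower (24.9% of all genes), the latter being Pim1 and Junb (3807 and 1965 CPM), and in T/NK-like cells 1 of 11 counted was lower (16.1% of all genes). Saa3 was thus higher in macrophage-like and lower in fibroblast-like cells of the same library, and it marks the Arg1 cluster described above.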

How the data were processed

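Single cells of 1 tumor sample per genotype were profiled by 3′ RNA sequencing. The deposited files hold raw UMI counts per gene and barcode. Per the labels and the methods, the authors ran Fastp on the reads, SeekOneTools for the counting and Seurat 4.0.0 afterwards. The labels and methods differ on the kit, and the methods name a human genome although the gene identifiers are of mouse, so the build of the counts is unknown.

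Barcodes with at least 500 UMIs, 200 to 5000 genes and at most 8% mitochondrial UMIs were kept. A barcode could join a class if the markers of that class passed 3 times their share in free RNA (0.3 times for tumor markers), with at least 3 marker UMIs of at least 2 markers. The fibroblast-like class also needed at least 2 Col1a2 UMIs. A barcode that passed several limits joined the class with the largest marker share relative to its limit. Tumor-like barcodes with at least 2 Epcam UMIs became the Epcam-positive epithelial cells. A tumor-like cluster of 50 cells with more acinar than tumor markers among its leading genes was left unassigned. These rules were set after the cells had been seen, and the members and gene lists were chosen with earlier results of these data known. Clusters came from Leiden clustering. No doublet caller was run, and barcodes with markers of 2 classes were counted. UMIs were summed per class and library and given as CPM with exact Poisson intervals, shares with exact Clopper-Pearson intervals and ratios with conditional exact intervals. With 1 library per genotype no test was possible. A ratio was counted where both libraries together held at least 50 UMIs. The genes named are the members, examples from the pathway lists (some list genes are not reported here), and the 3 genes most correlated with Lif, Osm and Il6 among those with at least 200 UMIs. Other genes (class markers, cluster leaders and Slc16a1) identify the cells. All columns were mapped to a library. The alternatives were other limits on UMIs, genes and mitochondrial share, classes per cluster, free RNA subtracted, means over cells, CPM without acinar, mitochondrial and ribosomal protein genes, and mixed barcodes left out, plus the 4 named in the closing section as added later. The interval of the ratios was checked on simulated Poisson counts with known folds, drawn from the model that the interval assumes. That check does not cover UMIs gathered in few cells. Of the tumor-like Il6 UMIs, for example, 82.0% lay in 598 of 5977 cells. No other step was checked on simulated data. The software was Python 3.11.15, numpy 2.4.6, pandas 2.3.3, scipy 1.17.1, scikit-learn 1.9.0, igraph 0.11.9, leidenalg 0.10.2 and matplotlib 3.10.9.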

Additional observations from a re-analysis of the deposited data

Results flagged for a closer look

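For 6 members the libraries stood in opposite directions in different classes, by intervals that lie on either side of 1. None of these differences between classes was tested, since each class has 1 library per genotype. Il6 had a ratio of the MCT1-KO-labelled to the FLOX library of 4.37 (3.24 to 5.99) in macrophage-like cells and 0.873 (0.794 to 0.961) in fibroblast-like cells, but the latter was 1.03 by means over cells. The macrophage-like Il6 levels were under free RNA. Lif had 2.55 (1.49 to 4.48) in neutrophil-like and 0.593 (0.421 to 0.833) in fibroblast-like cells, the first of which turned under other class rules and was 1.05 without the barcode richest in Lif of each library. All these Lif levels were under free RNA. Il11 had 2.27 (1.67 to 3.10) in neutrophil-like and 0.668 (0.535 to 0.831) in macrophage-like cells, with all these levels under free RNA. Il6st had 1.31 (1.06 to 1.62) in macrophage-like and 0.622 (0.401 to 0.947) in T/NK-like cells. Its macrophage-like levels, 15.6 and 20.4 CPM, were under free RNA of 30.5 and 26.9 CPM, as was the second T/NK-like level. Osmr had 1.60 (1.34 to 1.93) in fibroblast-like and 0.935 (0.881 to 0.993) in tumor-like cells. The tumor-like ratio was 1.06 without the upper limit on genes and 1.09 without clusters led by markers of another class, so under these its direction was not opposite. Stat3 had 1.23 (1.06 to 1.44) in neutrophil-like and 0.741 (0.683 to 0.804) in T/NK-like cells.

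The barcodes left out for having over 5000 genes, 2060 FLOX and 1231 MCT1-KO-labelled ones, held 39058 Il11 UMIs, against 36243 in all kept barcodes. They also held 6544 Lif, 9204 Clcf1 and 3419 Il6 UMIs, against 7868, 14227 and 6764 in kept barcodes, but only 303 Osm UMIs against 4809.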

How the results depend on the processing

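The share of the UMIs of Il6, Lif, Il11 and Clcf1 in tumor-like cells, that of Osm in macrophage-like cells and the number of members past 1.5-fold were recomputed under each alternative. Of these values, 72 stayed within the 95% counting interval of the reported share, or within 1.5 times the reported count, and 39 moved. Of the single levels, ratios and other values, 468 stayed within their interval, 90 moved and 3, all of a ratio past the fold, turned. Another 19 values crossed 1 from a ratio inside the fold, among them Osmr in tumor-like cells (1.06 and 1.09), Il6 in fibroblast-like cells (1.03), Il11 in T/NK-like cells (0.509 to 0.995) and Il6ra in neutrophil-like cells (0.910 and 0.931). With at least 1000 UMIs per barcode the shares were 74.0% for Lif, 81.4% for Il11 and 80.2% for Clcf1. Without the upper limit on genes they were 54.4% for Il6, 80.9% for Lif, 85.9% for Il11, 84.0% for Clcf1 and 51.4% for Osm. Without barcodes carrying markers of 2 classes Il6 had 44.3% and Il11 80.7%, and 1 member was past the fold in T/NK-like cells. With classes set per cluster the shares were 60.7% for Il6, 89.2% for Lif, 93.4% for Il11, 91.3% for Clcf1 and 70.2% for Osm, with 2 members past the fold in neutrophil-like and 4 in T/NK-like cells. With free RNA subtracted Lif had 77.7%, Il11 82.9%, Clcf1 83.2% and Osm 58.2%, and 1 member was past the fold in tumor-like and 1 in neutrophil-like cells. By means over cells 5 members were past it in fibroblast-like cells.

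Of the alternatives chosen after seeing the data, class markers at 5 times free RNA gave 80.7% for Il11 and 16.8% for Osm. In macrophage-like cells 6 members were then past the fold. The limit for tumor markers stayed at 0.3 times free RNA here and in all other alternatives. Leaving unassigned barcodes out of the total gave 57.1% for Il6, 91.0% for Lif, 96.2% for Il11, 93.4% for Clcf1 and 65.4% for Osm. Leaving out clusters led by markers of another class gave 36.5% for Il6, 68.8% for Lif, 76.7% for Il11, 76.2% for Clcf1 and 56.2% for Osm, and 1 member past the fold in T/NK-like cells.

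The ratio of Lif in neutrophil-like cells turned, to 0.978 with classes per cluster, 0.908 by means over cells and 0.952 at 5 times free RNA. It was 1.05 without the barcode with the most Lif UMIs of each library, an alternative also added after seeing the data. In all alternatives that gave a value, the ratio stayed past 1.5-fold for Osm in neutrophil-like cells (0.162 to 0.232), Il6 (3.95 to 4.59), Lifr (2.28 to 2.66) and Clcf1 in macrophage-like cells, Clcf1 in tumor-like (1.60 to 1.82) and neutrophil-like cells, and Osmr (1.54 to 1.81) and Il6ra in fibroblast-like cells. It came inside the fold under at least 1 alternative for Il11 in neutrophil-like cells (1.23), Lif in fibroblast-like cells (0.682), Il6st in T/NK-like cells (0.763), and Osm in T/NK-like (0.827) and tumor-like cells (0.839). The causes were not tested. With free RNA subtracted the ratios of Il6, Lif, Il11 and Clcf1 in macrophage-like cells, and of Lif, Il11 and Clcf1 in neutrophil-like cells, have no value, since under 3 UMIs were left in the FLOX library. Some ratios inside the fold passed it under at least 1 alternative, among them Stat3 in T/NK-like cells (0.625), Il6 in tumor-like cells (1.70), Lifr in fibroblast-like cells (1.84) and Il11 in macrophage-like cells (0.661). No paired analysis was possible because each group has 1 library.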

Other observations

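Barcodes in no class, 7135 with a median of 1151 UMIs, carried family ligands too. In the FLOX and MCT1-KO-labelled libraries they had Il6 at 48.5 and 103 CPM, Lif at 52.8 and 90.4 CPM, Clcf1 at 69.0 and 126 CPM, and Il11 at 235 and 315 CPM. Osm went the other way, at 59.7 and 16.8 CPM. In this group the Il6, Lif, Il11 and Clcf1 levels of the second library were above the free RNA of that library, and Osm was under it. In the FLOX library Il6, Il11 and Osm were above free RNA, Lif was under its 75.3 CPM and Clcf1 was level with it.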
